A study of Mus musculus with 14 samples.

Results

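Cytochrome P450 families 1 to 4 were followed through liver regeneration in 49 genes, of 12393 genes that had a probe set with a single symbol on the array. A probe set was taken as a member when its only symbol began with Cyp, carried a family number from 1 to 4 and a subfamily letter, and ended in the gene's number. For each gene the probe set with the highest mean intensity over the 14 arrays was used, out of 58 such probe sets; 4 further probe sets that list several P450 symbols were left out. By subfamily the 49 genes were 11 of 2c, 7 of 2d, 5 each of 3a and 4f, 4 each of 2b and 2j, 3 of 4a, 2 of 1a, and 1 each of 1b, 2a, 2e, 2f, 2g, 2s, 4b and 4v. The rule uses only gene symbols and the mean intensity over all arrays, and it was set with earlier results of these data known.

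Total RNA of mouse liver was measured on 1-colour arrays in 7 groups of 2 arrays: normal liver, and liver at 4, 8, 12, 36, 48 and 72 h after partial hepatectomy (PHx), an operation that takes out part of the liver and leaves the rest to grow. The labels give no strain, sex, age or sham operation, so the effect of surgery alone is not separated from that of tissue loss. Each RNA extraction pooled 4 to 6 mouse livers, and nothing in the labels tells whether a group's 2 arrays hold separate pools. The p-values therefore rest on array-to-array spread alone, and that spread may be technical.

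P450 enzymes are haem-containing monooxygenases of the endoplasmic reticulum that take electrons from cytochrome P450 reductase. Members of these families oxidise drugs and other foreign chemicals, fatty acids, arachidonic acid, steroids and bile acids, and hepatocytes are their main site. Their genes are regulated by the nuclear receptors CAR (Nr1i3), PXR (Nr1i2) and PPAR alpha, by the dioxin receptor Ahr, by hepatocyte factors such as Cebpa, and by growth hormone through Stat5b.

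The array medians ranged from 127.8 in normal replicate 2, which also had the lowest background (43.56), to 233.1 in 48 h replicate 1. With 2 arrays a group, their number limits the precision. Replicate arrays correlated at 0.938 to 0.970 across probe sets, which are not independent replicates, and arrays of different groups at 0.883 to 0.969. Replicate 2 at 8, 12, 36 and 72 h differed from the other arrays in the 5′ signal of pyruvate carboxylase. Its ratio of 5′ to 3′ probe sets lay between 0.0909 and 0.137 there and between 0.305 and 0.584 in the other 10 arrays. Whether the quality of the RNA or its labelling differed is not in the sample labels and was not tested. Of 12 hepatocyte markers 9 were on the array, with a summed intensity of 277240 to 344194 in normal liver and 179302 to 365796 after PHx. Of these 0 passed the limma test at any time against normal liver, and 1, 1, 1, 4, 2 and 1 had an unadjusted p under 0.05 at the 6 times in order. Transcripts of other tissues also moved. Of 15 pancreatic acinar genes 8 were higher at 4 h and 15 at 8 h, where their summed intensity was 298359 to 320141 against 1204 to 2262 in normal liver and 42284 to 42692 at 4 h. Later sums were 2156 to 4872 (12 h), 1195 to 48312 (36 h), 2530 to 2998 (48 h) and 1732 to 1912 (72 h), and 8 of these genes were not above background in normal liver. Of 14 skeletal muscle genes tested 13, 12 and 1 were higher at 4, 8 and 12 h, and the sum of the 17 on the array was 20454 to 22270 at 4 h and 12786 to 13915 at 8 h against 781 to 1508 in normal liver. Of 12 Kupffer cell and macrophage genes 2 were lower at 8 h and 5 at 12 h, where their sum was 5893 to 8451 against 13905 to 15443 in normal liver. The part of these transcripts in the P450 results was not tested.

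The upstream sequence of both Cyp2b genes that changed, and of a pair of Cyp2c genes with opposite late courses, is shown because the members of each pair moved in different directions. Each window is the 250 bases before the gene's start in RefSeq on GRCm38.p6, written 5′ to 3′ on the gene's strand. Capitals mark matches on either strand to TATAAA (the TATA box), AGGTCA (a half-site of nuclear receptors), GCGTG (the core of the dioxin response element), GTTAAT (an HNF1 half-site) and TTGCNNAA (the C/EBP pattern). The Cyp2b10 window lies at chr7:25897408-25897657 (+), that of Cyp2b9 at chr7:26173159-26173408 (+), that of Cyp2c68 at chr19:39741102-39741351 (-) and that of Cyp2c55 at chr19:39006769-39007018 (+).
Cyp2b10: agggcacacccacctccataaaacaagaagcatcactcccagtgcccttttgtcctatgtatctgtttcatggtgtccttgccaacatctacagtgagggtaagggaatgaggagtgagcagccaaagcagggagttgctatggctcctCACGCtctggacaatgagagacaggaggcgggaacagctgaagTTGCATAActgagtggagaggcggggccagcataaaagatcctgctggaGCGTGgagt
Cyp2b9: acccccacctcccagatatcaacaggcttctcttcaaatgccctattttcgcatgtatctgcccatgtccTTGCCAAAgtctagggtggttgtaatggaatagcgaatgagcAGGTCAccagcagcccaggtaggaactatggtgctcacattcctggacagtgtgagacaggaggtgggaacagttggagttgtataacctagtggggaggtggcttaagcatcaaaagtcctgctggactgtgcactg
Cyp2c68: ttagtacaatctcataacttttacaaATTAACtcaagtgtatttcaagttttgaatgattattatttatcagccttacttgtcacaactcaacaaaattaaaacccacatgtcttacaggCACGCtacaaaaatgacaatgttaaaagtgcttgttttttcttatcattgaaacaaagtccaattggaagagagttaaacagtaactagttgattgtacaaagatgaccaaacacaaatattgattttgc
Cyp2c55: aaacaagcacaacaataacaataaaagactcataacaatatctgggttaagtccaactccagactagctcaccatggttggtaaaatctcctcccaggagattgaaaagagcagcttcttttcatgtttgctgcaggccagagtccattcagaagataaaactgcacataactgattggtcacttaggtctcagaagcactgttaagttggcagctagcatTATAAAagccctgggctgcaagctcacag
In a global alignment without gaps counted, the Cyp2b10 and Cyp2b9 windows matched at 177 of 240 aligned bases (73.8%), and the Cyp2c68 and Cyp2c55 windows at 114 of 210 (54.3%). The Cyp2b10 window held GCGTG at 9 bases before the start and, on the opposite strand, at 101 bases, and the C/EBP pattern at 58 bases. The Cyp2b9 window held AGGTCA at 138 bases and the C/EBP pattern at 180 bases. In the Cyp2c68 window GCGTG lay at 130 bases and GTTAAT at 224 bases, both on the opposite strand, while the Cyp2c55 window held TATAAA at 29 bases.

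Windows of this length were found for 39 of the 49 members among 32851 in all. A member was counted if any of its windows held the pattern, while the share of all windows counts single windows. A gene with several windows thus has more chances, and the shares are not of like units. TATAAA was in 16 of the 39 (41%) and in 12.4% of all windows, AGGTCA in 11 (28.2%) and 14%, and the C/EBP pattern in 8 (20.5%) and 9.56%. GCGTG was in 9 (23.1%) and 28.2%, and GTTAAT in 3 (7.69%) and 6.43%. A match to so short a pattern is a description of the letters, not a binding site.

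Each change is given on the scale of log2(intensity + 57), with its standard error (SE) from 1 limma fit to all 14 arrays. A change was called where the p-value adjusted by Benjamini-Hochberg over the 13576 probe sets tested was under 0.05. Of the 49 members 40 had a mean intensity of at least 128.8 and were tested. The other 9 (Cyp2b13, Cyp2c65, Cyp2d12, Cyp2j13, Cyp2j9, Cyp3a16, Cyp3a44, Cyp4a31 and Cyp4f18) lay between 1.7 and 249.0 in all arrays, and Cyp3a16 and Cyp4f18 were above background in 0 of 14. All 6 comparisons with normal liver share the same 2 normal arrays, so they are not independent of each other.

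P450 members fell far more often than they rose. At 4 h 1 rose and 1 fell of 40, which is 5%, against 2.42% of all probe sets called. At 8 h 1 rose and 8 fell (22.5% against 9.59%), and at 12 h 1 rose and 12 fell (32.5% against 12.2%). At 36 h 12 fell and 0 rose (30% against 4.17%), at 48 h 3 fell and 0 rose (7.5% against 2.32%), and at 72 h 6 fell and 0 rose (15% against 2.49%). By direction, 0.825%, 4.72%, 6.22%, 1.89%, 0.685% and 0.869% of all probe sets fell at the 6 times in order, and 1.6%, 4.87%, 5.98%, 2.28%, 1.64% and 1.62% rose. These 45 calls belong to 17 genes, of which Cyp2b10 alone rose and 16 fell. The share of all probe sets called at 1 time or more was not computed. Counts of genes over all times, here and by family or subfamily below, therefore only describe the members. The moderated F test over the 6 times called 15 members (37.5% against 13.1% of all probe sets). It called Cyp2c55, which passed at no single time. It did not call Cyp2c37, Cyp2j6 and Cyp3a25 (adjusted p = 0.134, 0.0651 and 0.119), which are among the 16 that fell.

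**Figure D1:**
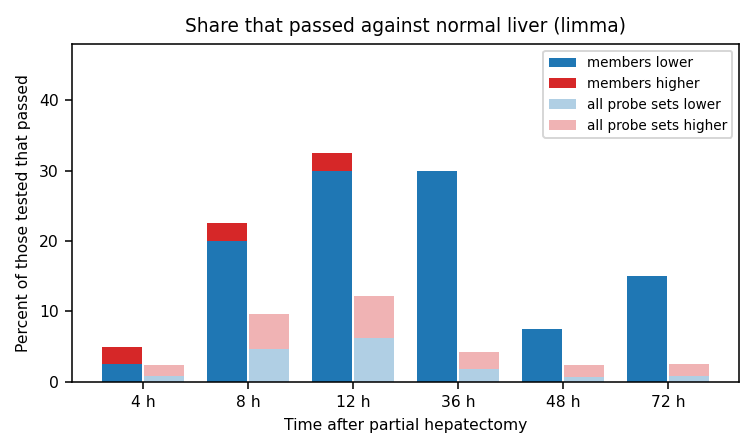
Percent of tested P450 members (solid bars, 40 genes) and of all probe sets tested (pale bars, 13576) that passed the limma test against normal liver at each time after partial hepatectomy, split into lower (blue) and higher (red). The members' bar reaches 32.5% at 12 h and 30% at 36 h, against 12.2% and 4.17% for all probe sets.

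The median log2 change of the 40 members was 0.00, -0.46, -0.41, -0.62, -0.38 and -0.48 at 4, 8, 12, 36, 48 and 72 h. The same medians over all probe sets were -0.00, 0.09, 0.12, 0.07, 0.12 and 0.11. By group mean, 18 members were highest in normal liver and 16 were lowest at 36 h, with 9 lowest at 72 h and 6 at 8 h. The same counts were not made over all probe sets, so these only describe the members. The hepatocyte markers had medians of 0.10, -0.16, -0.04, -0.58, -0.46 and -0.33. In whole liver RNA, fewer hepatocytes and less P450 RNA per hepatocyte cannot be told apart.

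The calls depended on single arrays. In 14 fits that each left out 1 array, 8 of the 45 calls passed every time, and 0 of 45 changed sign. Without replicate 2 of normal liver 10 of 45 passed, and without the 4 arrays with the low 5′ signal, a setting added after the data were seen, 11 of 45. With that split as a block, 43 of 45 passed. Members called without the 4 arrays were 2, 5, 1, 1 and 0 at 8, 12, 36, 48 and 72 h, where all probe sets called fell to 2.68%, 3.76%, 0.597%, 1.31% and 0.464%. Those 11 were 3 each of Cyp2b10 and Cyp2b9, 2 each of Cyp2c23 and Cyp2c68, and 1 of Cyp4f15. A log2 change rests only on the arrays of the groups compared, so leaving out any other array could not change its sign. The arrays whose removal ended a call are given with each gene. Normal replicate 2 also had the lowest median intensity of the 14 arrays (127.8), and the part of this in the falls was not tested.

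**Figure D2:**
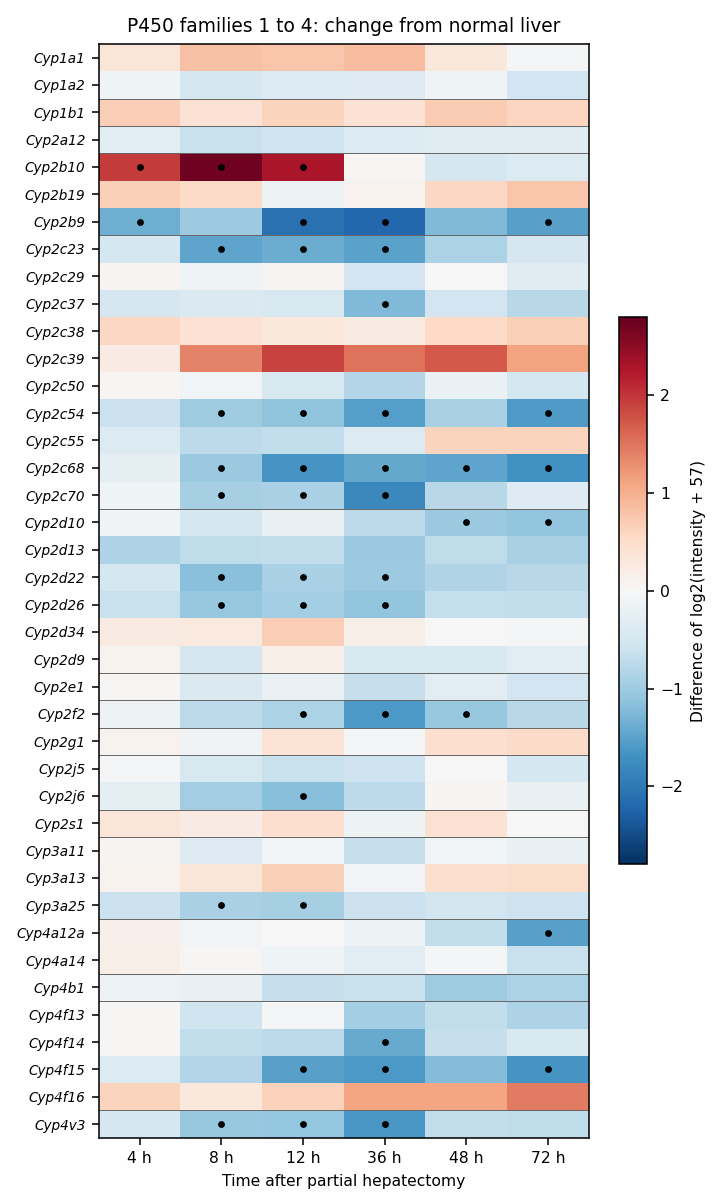
Difference of log2(intensity + 57) from normal liver (colour scale) for the 40 tested P450 members (rows, by subfamily) at 6 times after partial hepatectomy (columns), 2 arrays a group; a dot marks an adjusted p under 0.05 in limma. Cyp2b10 is the only member with a dot in red, at 4, 8 and 12 h, and Cyp2b9 is blue at every time.

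Within the Cyp2b subfamily, whose members are known for induction by phenobarbital, 1 gene rose and 1 fell. Cyp2b10, the standard target gene of the receptor CAR, read 1914 and 2627 in normal liver, 7124 and 11206 at 4 h, 16282 and 13968 at 8 h, 14827 and 8461 at 12 h, 2345 and 2291 at 36 h, 1622 and 1528 at 48 h, and 1657 and 1746 at 72 h. Every array of the first 3 times lay above both normal arrays, and the 36 h arrays lay between them. It rose by 1.97 (SE 0.30, adjusted p = 0.0047) at 4 h, 2.72 (SE 0.30, adjusted p = 0.000251) at 8 h and 2.29 (SE 0.30, adjusted p = 0.000806) at 12 h, a ratio of mean intensities of 4.04, 6.66 and 5.13. At 36, 48 and 72 h the differences were 0.05, -0.50 and -0.39 and did not pass (adjusted p = 0.963, 0.481 and 0.57).

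The brightest probe set of Cyp2b10 is of a kind that can match several related transcripts, and so is another of its 3 probe sets. The third, which is not of that kind, rose by 1.96, 3.05 and 2.58 at the same times (adjusted p = 0.00652, 0.000163 and 0.000488), from 1114 and 1096 in normal liver to 9183 and 10018 at 8 h. The other rose by 2.06, 2.78 and 2.55. The calls at 8 and 12 h passed in all 14 fits that left out 1 array (2.50 to 2.94 and 1.89 to 2.69). The 4 h call was lost only without replicate 2 of that group (1.64, adjusted p = 0.0787). Without the 4 arrays with the low 5′ signal all 3 calls passed.

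Cyp2b9, described as higher in female than in male mouse liver, is separated from Cyp2b10 in the gene order by Cyp2b13 alone, which was not bright enough to test. Its intensity was 1623 and 1839 in normal liver, 654 and 625 at 4 h, 873 and 781 at 8 h, 242 and 534 at 12 h, 308 and 355 at 36 h, 840 and 584 at 48 h, and 602 and 536 at 72 h. All 12 arrays after PHx were below both normal arrays. It fell by 1.36 (SE 0.30, adjusted p = 0.0337) at 4 h, 2.09 (SE 0.30, adjusted p = 0.00121) at 12 h, 2.20 (SE 0.30, adjusted p = 0.00186) at 36 h and 1.51 (SE 0.30, adjusted p = 0.0173) at 72 h, while -1.02 at 8 h and -1.23 at 48 h did not pass (adjusted p = 0.0516 and 0.0544). The 12 and 36 h calls passed in every fit that left out 1 array. The 4 h call was lost without either replicate of normal liver, 4 h, 8 h or 72 h (-1.45 to -1.27, adjusted p = 0.0536 to 0.232), and the 72 h call without normal replicate 2 or either 72 h replicate (adjusted p = 0.149, 0.0878 and 0.162). The remaining tested gene, Cyp2b19, did not pass at any time.

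**Figure D3:**
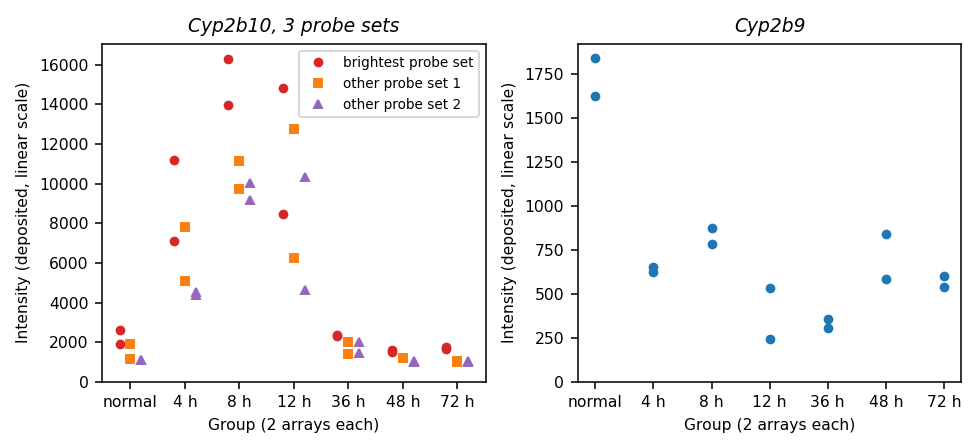
Deposited intensity (linear axis from 0) of the 3 probe sets of Cyp2b10 (left) and of Cyp2b9 (right) in each of the 14 arrays, 2 points a group for normal liver and 6 times after partial hepatectomy. All 3 Cyp2b10 probe sets are high at 4, 8 and 12 h and back near normal liver at 36 h, while each Cyp2b9 point after surgery lies under both normal points.

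Among the Cyp2c genes, many of which code for epoxygenases of arachidonic acid, 4, 4, 5, 1 and 2 of 10 tested fell at 8, 12, 36, 48 and 72 h. Cyp2c68 was the member that fell at the most times, from 8 to 72 h. It read 16703 and 24225 in normal liver, 17753 and 16302 at 4 h, 10057 and 9524 at 8 h, 5507 and 7291 at 12 h, 6985 and 7980 at 36 h, 6826 and 7527 at 48 h, and 5768 and 6667 at 72 h. The 4 h arrays overlapped normal liver and all later arrays lay below it. The falls were 1.04, 1.66, 1.42, 1.48 and 1.69 at 8, 12, 36, 48 and 72 h (SE 0.24 each, adjusted p = 0.0188, 0.00131, 0.0062, 0.00533 and 0.0023). The mean at 72 h was 30.4% of that of normal liver. Its 12 and 72 h calls passed in every fit that left out 1 array. Without normal replicate 2 the 8, 36 and 48 h calls were lost (-1.21 to -0.77, adjusted p = 0.0682 to 0.172), as was the 8 h call without either 8 h replicate (-1.07 and -0.996) and the 48 h call without 48 h replicate 1 (-1.41, adjusted p = 0.0584). Without the 4 arrays 2 of its 5 calls passed.

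Cyp2c54, described as pericentral, read 12488 and 16782 in normal liver, 9384 and 9699 at 4 h, 7451 and 7088 at 8 h, 5652 and 7745 at 12 h, 6015 and 4025 at 36 h, 7440 and 7970 at 48 h, and 5451 and 4148 at 72 h. Each array after PHx was below both normal arrays. It fell by 0.99, 1.12, 1.55 and 1.59 at 8, 12, 36 and 72 h (SE 0.27 each, adjusted p = 0.0363, 0.0177, 0.00689 and 0.00685). All 4 calls were lost without normal replicate 2 (-1.38 to -0.78, adjusted p = 0.0766 to 0.253) and without the 4 arrays (-1.40 to -0.95, adjusted p = 0.0564 to 0.172). The 8 h call was also lost without either 4 or 8 h replicate (-1.02 to -0.95) and with the block (-0.92, adjusted p = 0.0679). The others were lost without 12 h replicate 1 (-0.90), 36 h replicate 2 (-1.26) and 72 h replicate 2 (-1.40).

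Cyp2c70, the enzyme that makes muricholic acids in mouse liver, read 24136 and 29318 in normal liver, 21254 and 28082 at 4 h, 12955 and 15197 at 8 h, 12540 and 15949 at 12 h, 7981 and 7270 at 36 h, 13095 and 18539 at 48 h, and 20684 and 20717 at 72 h. It was lowest at 36 h and close to normal liver again at 72 h, though still under both normal arrays. It fell by 0.92 at 8 h, 0.91 at 12 h and 1.80 at 36 h (SE 0.25 each, adjusted p = 0.0378, 0.0346 and 0.00215), and at 72 h the difference of -0.36 did not pass (adjusted p = 0.523). The 36 h call passed in all 14 fits. Both earlier calls were lost without normal replicate 2 (-0.78 and -0.77), either 36 h or either 72 h replicate (-0.92 and -0.91, adjusted p = 0.0504 to 0.0569), the 8 h call without either 8 h replicate (-0.81 and -1.04) and the 12 h call without 12 h replicate 1 (-0.74). Without the 4 arrays 0 of 3 passed (adjusted p = 0.108 to 0.191).

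Cyp2c23, an arachidonic acid epoxygenase, read 12848 and 16525 in normal liver, 11110 and 9617 at 4 h, 4628 and 5927 at 8 h, 3965 and 7585 at 12 h, 6085 and 4370 at 36 h, 8097 and 7561 at 48 h, and 9417 and 11656 at 72 h. All arrays after PHx were below both normal arrays, and the lowest lay between 8 and 36 h. The falls were 1.47, 1.40 and 1.49 at 8, 12 and 36 h (SE 0.31 each, adjusted p = 0.0116, 0.013 and 0.0192). All 3 were lost without normal replicate 2 (-1.31 to -1.22, adjusted p = 0.103 to 0.159), and 1 each without 8 h replicate 1 (-1.29), 12 h replicate 1 (-0.94) and 36 h replicate 2 (-1.25). Its probe set can match several transcripts.

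Cyp2c37 fell at 36 h only, by 1.24 (SE 0.29, adjusted p = 0.0328). It read 5914 and 4729 in normal liver, 3656 and 3904 at 4 h, 3712 and 4291 at 8 h, 2953 and 5103 at 12 h, 2537 and 1924 at 36 h, 3855 and 3389 at 48 h, and 2570 and 3600 at 72 h. Only the 12 h arrays overlapped normal liver. Its call passed in 6 of the 14 fits and was lost without either replicate of normal liver, 4 h, 8 h or 36 h (-1.43 to -1.04, adjusted p = 0.0515 to 0.29).

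Cyp2c55, which responds to CAR and PXR, took the opposite late course. It read 907 and 1408 in normal liver, 900 and 813 at 4 h, 583 and 751 at 8 h, 680 and 688 at 12 h, 877 and 834 at 36 h, 1611 and 1980 at 48 h, and 1608 and 1985 at 72 h. The arrays from 4 to 36 h lay below both normal arrays and the 48 and 72 h arrays above them. Against normal liver none of these passed (adjusted p = 0.0889, 0.0936, 0.27 and 0.252 at 8, 12, 48 and 72 h), but 72 h was higher than 12 h by 1.32 (SE 0.25, adjusted p = 0.00789), a ratio of means of 2.63. That call was lost only without 72 h replicate 2 (1.17, adjusted p = 0.0875) among the fits that left out 1 array.

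Of the other Cyp2c genes Cyp2c29, a target of CAR and PXR, read 14474 and 14322 in normal liver and 11828 and 8343 at 36 h, and its differences from -0.53 to 0.08 did not pass. Cyp2c50 read 22968 and 14912 in normal liver and 13015 and 8477 at 36 h, a difference of -0.81 that did not pass (adjusted p = 0.15). Cyp2c39, above background in 9 of 14 arrays, was not above it in normal liver (40.7 and 15.3), read 230 and 287 at 12 h, and did not pass (adjusted p = 0.0537). Cyp2c38 differed by 0.25 to 0.67 and did not pass at any time.

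**Figure D4:**
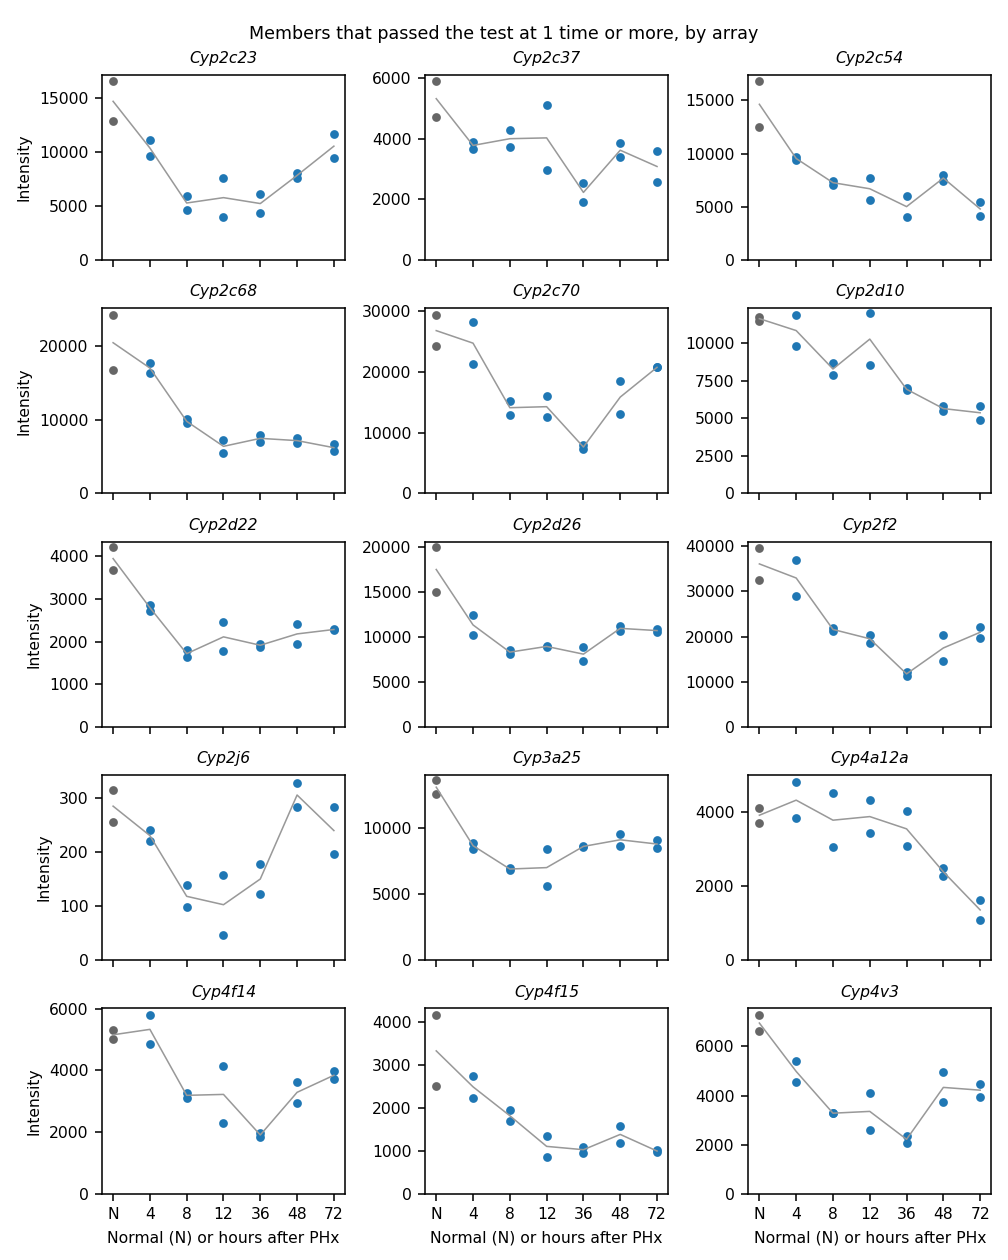
Deposited intensity (linear axes from 0) of 15 P450 members that fell at 1 time or more, in each of the 14 arrays; grey points are normal liver (N), blue points the arrays at each time after partial hepatectomy (PHx), and lines join the group means. Cyp2c70, Cyp2f2, Cyp4f14 and Cyp4v3 are lowest at 36 h, while Cyp2d10 and Cyp4a12a are lowest at 72 h.

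In the Cyp2d subfamily 2 of 6 tested fell at 8, 12 and 36 h, and 1 at 48 and at 72 h. Cyp2d22, often treated as the mouse counterpart of the drug-metabolising human CYP2D6, read 3676 and 4216 in normal liver, 2722 and 2869 at 4 h, 1807 and 1628 at 8 h, 1774 and 2448 at 12 h, 1953 and 1876 at 36 h, 1951 and 2410 at 48 h, and 2301 and 2268 at 72 h. All arrays after PHx were below both normal arrays. It fell by 1.17, 0.90 and 1.02 at 8, 12 and 36 h (SE 0.22 each, adjusted p = 0.00647, 0.0211 and 0.024). Its other probe set differed by -0.85, -0.76 and -1.03 and did not pass (adjusted p = 0.0689, 0.0862 and 0.0554).

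Cyp2d26 read 15025 and 19972 in normal liver, 10220 and 12451 at 4 h, 8100 and 8525 at 8 h, 9030 and 8863 at 12 h, 8845 and 7336 at 36 h, 10663 and 11250 at 48 h, and 10544 and 10872 at 72 h. No array after PHx reached normal liver. It fell by 1.05, 0.95 and 1.10 at 8, 12 and 36 h (SE 0.22 each, adjusted p = 0.0107, 0.0159 and 0.0152). Without normal replicate 2 all 3 calls of Cyp2d22 (-1.07 to -0.80, adjusted p = 0.0576 to 0.163) and of Cyp2d26 (-0.89 to -0.74, adjusted p = 0.101 to 0.141) were lost, and so they were without the 4 arrays. Cyp2d22 also lost the 8 h call without 8 h replicate 2 (-1.10), the 12 h call without 12 h replicate 1 (-0.67) and the 36 h call without either 36 h replicate (-1.05 and -0.99). Cyp2d26 lost the 8 h call without either 8 h replicate (-1.02 and -1.09), the 12 h call without 12 h replicate 2 (-0.94) and the 36 h call without 36 h replicate 2 (-0.97).

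Cyp2d10 moved later, with 11466 and 11750 in normal liver, 11834 and 9799 at 4 h, 8691 and 7840 at 8 h, 8543 and 11955 at 12 h, 6990 and 6852 at 36 h, 5455 and 5820 at 48 h, and 4892 and 5827 at 72 h. The 4 and 12 h arrays overlapped normal liver, and the 48 and 72 h arrays were below every earlier array. It fell by 1.04 (SE 0.23, adjusted p = 0.0332) at 48 h and 1.11 (SE 0.23, adjusted p = 0.0209) at 72 h. The 48 h call passed in 2 of the 14 fits, those without a 12 h replicate, and was lost without any other array (-1.08 to -0.99, adjusted p = 0.0508 to 0.207). The 72 h call was lost without either normal replicate (adjusted p = 0.0513 and 0.137) or either 72 h replicate (-0.99 and -1.24). Cyp2d9, a steroid hydroxylase higher in male mouse liver, differed by -0.48 to 0.17 and did not pass. Cyp2d13 did not pass by its brightest probe set (-1.04 at 36 h, adjusted p = 0.0643), while its other probe set fell at all 6 times, by 1.41 at 4 h and 1.59 at 36 h (adjusted p = 0.0202 and 0.00736).

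Cyp2f2, the naphthalene-oxidising enzyme found in periportal hepatocytes, read 32549 and 39612 in normal liver, 29058 and 36868 at 4 h, 21973 and 21181 at 8 h, 20392 and 18637 at 12 h, 11233 and 12249 at 36 h, 14570 and 20387 at 48 h, and 22135 and 19766 at 72 h. The 4 h arrays overlapped normal liver and all others lay below it. It fell by 0.88, 1.61 and 1.06 at 12, 36 and 48 h (SE 0.23 each, adjusted p = 0.03, 0.00286 and 0.0364). The 36 h call, at which the mean was 32.5% of normal liver, passed in all 14 fits. The 12 h call was lost without normal replicate 2 (-0.74) or either 12 h replicate (-0.94 and -0.81), and with the block (adjusted p = 0.0522). The 48 h call passed in 4 of the 14 fits, those without normal replicate 1, either 12 h replicate or 48 h replicate 2 (adjusted p = 0.0517 to 0.311 in the others). Of 7 genes tested that are described as pericentral, Cyp2c54 fell at 8, 12, 36 and 72 h and Cyp2c37 at 36 h, and a difference between the zones was not tested.

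Cyp2j6, of a subfamily of epoxygenases, read 316 and 256 in normal liver, 241 and 221 at 4 h, 139 and 98.6 at 8 h, 159 and 47.7 at 12 h, 179 and 123 at 36 h, 329 and 283 at 48 h, and 284 and 197 at 72 h. It fell at 12 h (adjusted p = 0.032), and no size is given because replicate 2 of that group was not above background. The call was lost without either normal replicate or 12 h replicate 2 (adjusted p = 0.0899, 0.102 and 0.197). Cyp2j5 did not pass by its brightest probe set (-0.63 at 12 h, adjusted p = 0.118), while its other probe set fell by 1.17, 1.33, 1.11 and 0.90 at 8, 12, 36 and 72 h (adjusted p = 0.00472, 0.00197, 0.011 and 0.0441).

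The Cyp3a enzymes carry much of the oxidation of drugs and steroids, and 1 of 3 tested fell. Cyp3a25 read 12546 and 13585 in normal liver, 8878 and 8426 at 4 h, 6960 and 6822 at 8 h, 5575 and 8423 at 12 h, 8580 and 8616 at 36 h, 8626 and 9568 at 48 h, and 8446 and 9108 at 72 h. Every array after PHx lay below both normal arrays. It fell by 0.92 at 8 h and at 12 h (SE 0.23, adjusted p = 0.0248 and 0.0202), and both calls were lost without normal replicate 2 (-0.87 and -0.86, adjusted p = 0.118 and 0.142) and without the 4 arrays. The 8 h call was lost also without either 8 h replicate (-0.93 and -0.90), and the 12 h call without 12 h replicate 1 (-0.63).

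Cyp3a11, the main hepatic target of PXR in the mouse, read 28009 and 30110 in normal liver, 28183 and 33231 at 4 h, 24813 and 20628 at 8 h, 28790 and 26692 at 12 h, 20946 and 16586 at 36 h, 24402 and 31077 at 48 h, and 24546 and 25663 at 72 h. The 8, 36 and 72 h arrays lay below normal liver and the others overlapped it. It did not pass at any time: the difference was -0.36 at 8 h (95% interval -0.85 to 0.13) and -0.64 at 36 h (-1.13 to -0.15, adjusted p = 0.146). Cyp3a13 differed by up to 0.67, at 12 h, and did not pass (adjusted p = 0.129).

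Family 4 enzymes hydroxylate fatty acids and eicosanoids at the end of the chain, and 4 of the 8 tested fell at 1 time or more. Cyp4f15 read 2501 and 4147 in normal liver, 2228 and 2749 at 4 h, 1690 and 1943 at 8 h, 861 and 1345 at 12 h, 1096 and 956 at 36 h, 1180 and 1583 at 48 h, and 1018 and 972 at 72 h. The 4 h arrays overlapped normal liver, and all later ones were below it. It fell by 1.53, 1.60 and 1.64 at 12, 36 and 72 h (SE 0.29 each, adjusted p = 0.00595, 0.00909 and 0.00956). All 3 calls were lost without normal replicate 2 (-1.28 to -1.17, adjusted p = 0.0647 to 0.119), the 36 h call without 36 h replicate 2 (-1.51) and the 72 h call without either 72 h replicate (-1.67 and -1.61).

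Cyp4f14, a leukotriene B4 hydroxylase, fell at 36 h by 1.41 (SE 0.27, adjusted p = 0.0114). It read 5305 and 5003 in normal liver, 4849 and 5810 at 4 h, 3262 and 3121 at 8 h, 2292 and 4152 at 12 h, 1853 and 1962 at 36 h, 2947 and 3631 at 48 h, and 3977 and 3707 at 72 h. From 8 h on all arrays were below normal liver. The call was lost without normal replicate 2 or either 36 h replicate (-1.45 to -1.37, adjusted p = 0.0694, 0.0686 and 0.0913).

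Cyp4v3, the mouse counterpart of the fatty acid hydroxylase CYP4V2, read 6616 and 7285 in normal liver, 4565 and 5397 at 4 h, 3275 and 3288 at 8 h, 2607 and 4102 at 12 h, 2351 and 2085 at 36 h, 3722 and 4940 at 48 h, and 4480 and 3956 at 72 h. All arrays after PHx were below both normal arrays. It fell by 1.07 at 8 h, 1.07 at 12 h and 1.62 at 36 h (SE 0.25 each, adjusted p = 0.0205, 0.0172 and 0.004). The 8 and 12 h calls were lost without normal replicate 2 (adjusted p = 0.109 and 0.127), the 8 h call without either 8 h replicate (-1.07 each), the 12 h call without 12 h replicate 1 (-0.75) and the 36 h call without 36 h replicate 2 (-1.54, adjusted p = 0.0567). Its other probe set, which is not of the kind that can match several transcripts, fell at 36 h only (-1.001, adjusted p = 0.0468).

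Cyp4a12a, which makes 20-HETE and is higher in male mouse liver, read 4124 and 3727 in normal liver, 3839 and 4827 at 4 h, 4513 and 3069 at 8 h, 3441 and 4336 at 12 h, 4034 and 3080 at 36 h, 2287 and 2502 at 48 h, and 1624 and 1103 at 72 h. Up to 36 h the arrays overlapped normal liver, and both 72 h arrays were below all others. It fell by 1.51 at 72 h (SE 0.27, adjusted p = 0.0111), to 34.7% of the normal mean, and was lower at 72 h than at 12 h by -1.49 (adjusted p = 0.00671). The first call was lost without normal replicate 2 (-1.58, adjusted p = 0.0683) or 72 h replicate 2 (-1.24, adjusted p = 0.155), and the second without 72 h replicate 2 (-1.22, adjusted p = 0.0868). Cyp4a14, a PPAR alpha target, differed by -0.61 at 72 h and did not pass (adjusted p = 0.299). Cyp4b1 differed by -0.996 at 48 h (adjusted p = 0.0731), Cyp4f13 by -0.96 at 36 h (adjusted p = 0.132) and Cyp4f16 by 1.45 at 72 h (adjusted p = 0.0523), and none passed against normal liver. For Cyp4f16 normal replicate 2 (18.5) was not above background, so its difference has no firm size.

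Family 1 holds the classic dioxin receptor targets Cyp1a1, Cyp1a2 and Cyp1b1, and 0 of 3 passed in limma at any time, with 1, 1, 2, 1, 1 and 1 at an unadjusted p under 0.05. Cyp1a1 read 198 and 151 in normal liver and 354 and 346 at 8 h, a difference of 0.82 (95% interval 0.17 to 1.48, adjusted p = 0.109). Cyp1a2 read 14541 and 17318 in normal liver and differed by -0.54 to -0.11. Cyp2e1, the ethanol-oxidising enzyme of pericentral hepatocytes, read 30787 and 35937 in normal liver and 22769 and 19762 at 36 h, a difference of -0.65 (95% interval -1.19 to -0.10, adjusted p = 0.188). Cyp2a12 differed by -0.62 at 8 h (adjusted p = 0.116). The remaining members, Cyp2d34, Cyp2g1 and Cyp2s1, lay between 31.0 and 386.7 in all arrays, and the lowest adjusted p among their comparisons with normal liver was 0.373.

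The late times (36, 48 and 72 h) were then compared with the early times (4, 8 and 12 h), 6 arrays against 6, where 2 members were higher and 8 lower late (25%, against 15.9% of all probe sets, of which 9.92% were higher and 5.96% lower). Cyp2b10 was lower late by -2.60 (SE 0.17, adjusted p = 1.81e-06), Cyp4a12a by -0.80 (adjusted p = 0.00472), Cyp2d10 by -0.70 (adjusted p = 0.00331) and Cyp4f13 by -0.65 (adjusted p = 0.0345). Cyp4f15, Cyp2f2, Cyp2c68 and Cyp4b1 were lower by -0.58, -0.57, -0.55 and -0.50. Cyp2c55 was higher late by 0.89 (SE 0.14, adjusted p = 0.00131) and Cyp4f16 by 0.70 (SE 0.20, adjusted p = 0.0345). The late Cyp4f16 arrays read 174 to 269 and the early ones 62.9 to 159, with no overlap. However, its probe set was above background in 11 of 14 arrays. Among the early arrays, 8 h replicate 1 (62.9, background 75.62) and 12 h replicate 1 (91.9, background 103.09) were not above it, so the difference has no firm size. Normal replicate 2 (18.5) was not above it either, but does not enter this comparison. The other probe set of Cyp4f16, not bright enough to test, read 47.1 to 154.1 late and 56.8 to 146.3 early, which overlap. Between the same times 15 of 15 acinar and 13 of 14 muscle genes tested were lower late, as were 2 of 9 hepatocyte markers (Apoa1 and Tat), and their part in these results was not tested.

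Of these 10 calls, those of Cyp2b10, Cyp2c55, Cyp2d10 and Cyp4a12a passed in all 14 fits that left out 1 array. That of Cyp2f2 was lost without 4 h replicate 2 (-0.51, adjusted p = 0.0504), and that of Cyp2c68 without replicate 1 of the 4, 8, 36 or 72 h group (-0.54 to -0.52, adjusted p = 0.051 to 0.0584). Cyp4f13 passed in 6 of the 14 fits, Cyp4f15 and Cyp4f16 in 4 and Cyp4b1 in 3, and each was lost without either 4 h replicate, 8 h replicate 1, 36 h replicate 1 or either 72 h replicate, among others (adjusted p up to 0.114). Without the 4 arrays Cyp2b10 and Cyp2c55 passed. Between 72 and 12 h 1 member was higher and 3 lower (10%, against 6.8% of all probe sets, of which 4.15% were higher and 2.64% lower): Cyp2c55 and Cyp4a12a as given above, Cyp2b10 (-2.68, adjusted p = 0.000293) and Cyp2d10 (-0.91, adjusted p = 0.0315). Cyp2b10 passed in every fit, and Cyp2d10 was lost without 12 h replicate 2 or either 36 or 72 h replicate (-1.04 to -0.67, adjusted p = 0.052 to 0.197).

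**Figure D5:**
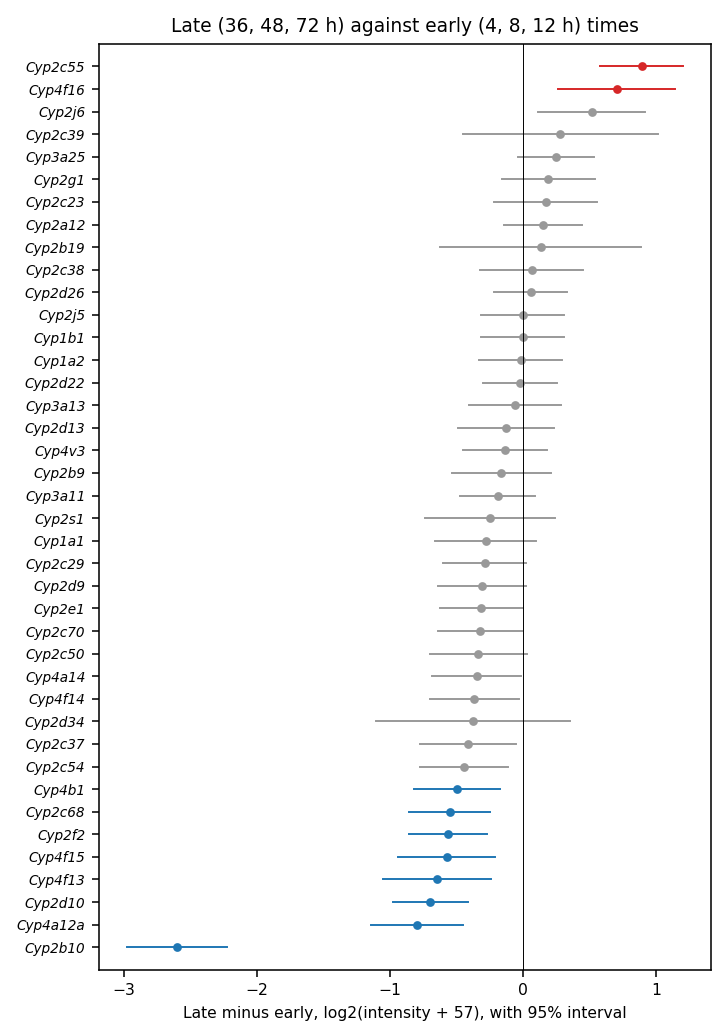
Difference of mean log2(intensity + 57) between late (36, 48 and 72 h) and early (4, 8 and 12 h) times for the 40 tested P450 members, with 95% intervals of the limma fit, 6 arrays a side; red marks higher and blue lower late at an adjusted p under 0.05. Cyp2c55 (0.89) and Cyp4f16 (0.70) are the members in red, and Cyp2b10 (-2.60) lies apart from the others on the left.

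Genes that serve or regulate the P450 system were read from lists drawn up from background knowledge, and the fits that left out arrays are not given for them. Of 4 electron donors and related proteins tested (Cyb5a, Cyb5b, Cyb5r3 and Pgrmc1), Cyb5b passed, an outer mitochondrial cytochrome b5, which fell by 1.24 at 12 h (SE 0.24, adjusted p = 0.00626). Of 7 haem synthesis genes Alas1, the rate-limiting enzyme, rose by 2.06, 2.29, 2.23 and 1.42 at 4, 8, 12 and 36 h (SE 0.31 each, adjusted p = 0.00456, 0.000886, 0.00113 and 0.0243). Its mean intensity was 3995 ± 191 (SD, n = 2) in normal liver, 19706 ± 679 (SD, n = 2) at 8 h and 20392 ± 10872 (SD, n = 2) at 12 h. Alad, the next enzyme, fell by 0.96 at 12 h (adjusted p = 0.0306).

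Among 18 receptors and transcription factors tested, 2 rose and 2 fell at 4 h, 5 fell at 8 h, 1 rose and 5 fell at 12 h, 2 fell at 36 h, 0 passed at 48 h (3 at an unadjusted p under 0.05 in limma) and 1 fell at 72 h. Nr1i3, the receptor CAR, fell by 1.83 at 8 h and 1.70 at 12 h (SE 0.33, adjusted p = 0.00519 and 0.00694), from a mean intensity of 1623 ± 283 (SD, n = 2) to 412 ± 17.1 (SD, n = 2) at 8 h. At 4 h it differed by -0.99 and did not pass (adjusted p = 0.182). Cyp2b10 was high at 4, 8 and 12 h, and a link between these genes was not tested. Nr1i2, the receptor PXR, differed by -0.15 to 0.65 and did not pass. Cebpa fell by 1.83 at 8 h (adjusted p = 0.0144), while Cebpb rose by 1.64 at 4 h and 1.27 at 12 h (adjusted p = 0.00666 and 0.00943). Ghr, the growth hormone receptor, fell by 1.07, 1.40, 1.18 and 1.26 at 8, 12, 36 and 72 h (adjusted p = 0.0164, 0.00338, 0.0171 and 0.0148), and Stat5b by 1.29 at 8 h and 1.21 at 36 h (adjusted p = 0.0122 and 0.0295).

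Outside families 1 to 4, 11 P450 genes were tested, of which 1, 3, 4, 3, 3 and 3 fell at the 6 times and 1 rose at 36 h and 1 at 48 h. Cyp8b1, the bile acid 12-alpha-hydroxylase, fell at 5 times, by 2.55 at 36 h and 2.43 at 72 h (adjusted p = 0.000388 and 0.000479). Cyp27a1, a mitochondrial sterol hydroxylase, fell by 1.25 at 36 h (adjusted p = 0.00658). Cyp7a1 took another course and fell by 2.04, 2.36 and 2.09 at 4, 8 and 12 h (adjusted p = 0.00382, 0.000575 and 0.00123). It did not pass at 36, 48 and 72 h (adjusted p = 0.916, 0.847 and 0.104), and was higher late than early by 2.49 (adjusted p = 2.72e-06). Of 11 other CAR and PXR targets tested 1, 2, 1, 2, 2 and 2 rose at the 6 times in order and 1 fell, at 8 h. The glutathione transferase Gstm3 rose at all 6 times, by 1.08 at 4 h and 2.35 at 72 h (adjusted p = 0.0289 and 0.000117), and Gstm2, another, rose at 8, 36, 48 and 72 h, by 1.54 at 72 h (adjusted p = 0.00148). The export pump Abcc3 fell by 0.89 at 8 h (adjusted p = 0.0334), and the other 8 did not pass against normal liver. Of 15 PPAR alpha targets 3, 4, 4 and 1 rose at 4, 8, 12 and 36 h, and 1 fell at 36 h and 2 at 48 h. Of 5 dioxin receptor targets listed outside the family, 4 were on the array and 2 were tested, Tiparp and Nqo1, which passed at different times. Tiparp rose by 2.73 at 4 h and 2.94 at 12 h (adjusted p = 0.0256 and 0.00615), with a mean of 3809 ± 3534 (SD, n = 2) at 12 h. Nqo1 rose by 1.42 at 36 h and 1.54 at 72 h (adjusted p = 0.0169 and 0.0131).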

How the data were processed

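The deposited values are linear 1-colour array intensities of 22690 probe sets in 14 arrays, scaled by the authors so that the trimmed mean is 500.19 to 500.284 in each array. Which software produced them was not given in the sources; the series' design text names GeneSpring 7.2 only for picking genes. The deposited scaling was kept, 57 (the 25th percentile) was added, and log2 values were computed from the deposited intensities. Probe sets with a mean under 128.8 (the 40th percentile) and 64 control probe sets were left out, which kept 13576. Groups came from the sample labels. One limma 3.58.1 fit (R 4.3.3) over the 7 groups, with 7 residual and 5.08 prior degrees of freedom, gave each comparison, with p-values adjusted by Benjamini-Hochberg in each. The procedure was also run on simulated data with noise drawn independently for each probe set and array. That run held none of the differences between arrays given above, so it cannot show their effect. As background, the 95th percentile over 27 bacterial controls was taken in each array (43.56 to 138.31). Symbols came from GEO's platform annotation, and 20380 probe sets had 1 symbol, 691 several and 1555 none. All 49 members matched a RefSeq gene.

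Values in every array are given for members called at 1 time or more, and for the brightest member of each subfamily with at least 3 tested. Cyp2c55 and the other members named with values were chosen after their values were seen. The members and gene lists were chosen with earlier results of these data known. Alternatives were quantile normalization, other pseudocounts and filters, an intensity trend, array weights, a replicate block, averaged probe sets per gene, only the arrays compared, a 2-fold limit and each array left out. A block for the 4 arrays with a low 5′ signal and a fit without them were added after the data were seen. Replicate numbers were checked as pairs in 21 pairs of groups. The correlation of deviations ran from -0.19 to 0.53, and was over 0.1 in 9 and below -0.1 in 6. All 4 arrays with a low 5′ signal are replicate 2, so the check cannot decide whether the numbers pair the arrays.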

Additional observations from a re-analysis of the deposited data

How the results depend on the processing

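Of 59 calls over the 8 comparisons, 0 changed sign under any alternative run, and those of Cyp2b10 at 8 h, at 12 h, late against early and 72 against 12 h, of Cyp2b9 at 12 and 36 h and of Cyp2c55 late against early passed under all of them. The number of members called (2, 9, 13, 12, 3 and 6 at the 6 times, 10 late against early, 4 at 72 against 12 h and 15 by F) moved as follows. At 4 h it was 1 with a pseudocount of 14.25 and 1 with no filter. Without the 4 arrays with a low 5′ signal it was 2, 5, 1, 1 and 0 at 8, 12, 36, 48 and 72 h, 2 late against early, 1 at 72 against 12 h and 3 by F. With only the arrays of the groups compared it was 5, 3, 4, 0 and 3 at those times and 1 at 72 against 12 h; fewer arrays enter each fit. Array weights gave 4 at 12 h and 1 at 48 h. At 48 h it was 6 with the pseudocount of 228, 6 with the filter at the 60th percentile, 6 with the intensity trend and 7 with a gene's probe sets averaged. Late against early it was 6 with no filter. A 2-fold limit with no test gave 9 at 48 h, 2 late against early and 7 at 72 against 12 h. The causes were not tested.

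With 1 array left out, the count ran from 0 to 2 (4 h), 1 to 12 (8 h), 3 to 15 (12 h), 4 to 12 (36 h), 0 to 6 (48 h), 1 to 7 (72 h), 5 to 12 late against early, 1 to 6 at 72 against 12 h and 9 to 18 by F. In these fits the remaining array of a group is assumed to vary like the other groups. Leaving out an array of a group not compared alters the estimated spread and not the log2 change. Normal replicate 2 gave the lowest count at 8 h (1), 12 h (3), 36 h (4, as did 36 h replicate 2), 48 h (0), 72 h (1, as did 72 h replicate 2) and by F (9), and 4 h replicate 2 at 4 h (0). At 8 h the count was also 2 without either 8 h replicate, at 12 h 6 without 12 h replicate 1, and at 72 h 3 without 72 h replicate 1. The fit with the replicate number as a block kept 59 of 59 calls and added calls: it gave 10 members at 8 h, 4 at 48 h, 11 late against early, 5 for 72 against 12 h and 16 by F, with the other counts as before. The added calls were Cyp2j6 at 8 h (adjusted p = 0.0324), late against early (0.0318) and 72 against 12 h (0.0393), and Cyp4f15 at 48 h (0.0331). With quantile normalization the median log2 change over all probe sets shifted by up to 0.118 (48 h, 0.12 to -0.00). It kept 56 of 59 calls, losing Cyp2d10 at 48 h and Cyp2c68 and Cyp2f2 late against early. The number of arrays, 2 a group, limits the precision, and values near background have no firm fold.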
